A study of Mus musculus with 4 samples.

Results

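The 5 mouse genes described here, Rabgef1, Ebpl, Tdrd7, Ccdc180 and Sh2d1a, carried lower signal in adult retinas after deletion of Nrl and lie outside the usual lists of rod photoreceptor genes. They were chosen by their measured falls in the knockout, on the arrays reported here, out of 19421 genes. Those falls are therefore given as a description, with no test. Nrl encodes the leucine zipper transcription factor that makes and maintains rods. Together with Crx and other factors it drives many genes of the rod outer segment, and its loss is known to lower rod genes.

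Whole retina was profiled on 4 arrays, 2 of knockout and 2 of control tissue. Knockout mice were Nrlflox/flox; CAG-CreERTM and control mice Nrlflox/+; CAG-CreERTM, so that the controls also carried the Cre transgene and a floxed allele, next to an intact one. Both genotypes were given 4-hydroxytamoxifen, which activates this Cre, daily by intraperitoneal injection from postnatal day 42 to 44. The floxed allele of the controls was thus also open to deletion, so the contrast is not deletion against fully intact Nrl. Retinas were taken at postnatal day 63, 19 days after the last injection, and each array held RNA of 4 retinas pooled from 2 animals. The CAG promoter is active in most cell types, so the deletion was not limited to rods. The tissue is a mixture, and fewer cells of a type and less RNA per cell cannot be told apart.

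Values are log2 signals of Affymetrix probe sets. Probe sets differ in how strongly they bind, so a rank of signal is only a rough guide to abundance. No detection calls were used here, and a low signal cannot be told from background. The targeted gene itself, Nrl, read 7.57 and 7.05 in the knockout pools against 8.21 and 8.13 in the control pools, a difference of −0.86 (SE 0.18, limma adjusted p = 0.289). Its probes cannot be placed relative to the deleted part here, which limits this as a check. The fit across all genes called 39 of them at an adjusted p under 0.05, or 0.201%, with 27 higher (0.139%) and 12 lower (0.0618%) in the knockout. Leaving out knockout replicate 1 or 2 gave 7 or 11 calls, and leaving out either control array gave 0, in fits where 1 group has a single array. The replicate number followed sex-linked genes. Xist read 4.07 and 4.09 in both first pools against 10.66 and 10.47 in the others, while Kdm5d and Uty, on the Y chromosome, went the opposite way. By these genes the pools of a genotype differ in sex, so a contrast of replicate numbers is also a contrast of sexes.

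The 5 genes have different known roles. Rabgef1, also called Rabex5, loads GTP onto Rab5, the switch of early endosomes, and its loss in mice leads to degeneration of photoreceptors. Ebpl is a relative of Ebp, an enzyme of cholesterol synthesis. Tdrd7 has Tudor domains and belongs to RNA granules, and it is known for its need in the lens and in male germ cells. Ccdc180 encodes a coiled-coil protein. Sh2d1a encodes SAP, an SH2 adaptor that T and NK cells use behind the receptors of the SLAM family.

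On GRCm38.p6, the build of the RefSeq table used for positions, Rabgef1 lies at chr5:130171819-130214342 and Ebpl at chr14:61339763-61360445. Sh2d1a lies on the X chromosome, at chrX:42502565-42522097. Ccdc180 (chr4:45890303-45950774) and Tdrd7 (chr4:45965027-46034766) are neighbours on the plus strand, with 14252 bases between the end of the first and the start of the second.

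RefSeq promoter windows, from 250 bases before to 50 after a start site, were matched by symbol for 4 of the 5 genes, with 8 windows in all. They are shown because the deleted gene encodes a DNA-binding factor. The shared direction of the 4 genes follows from how they were chosen and is no sign of sites. TGCTGA, a core of the sites that Nrl binds, its longer form TGCTGAC, and TAATCC, the core bound by Crx, were searched on both strands. TGCTGAC contains TGCTGA, so a match to the longer form counts for both. The 3 windows with a match are given, with the only window of Ebpl, which has none. Capitals mark the match, and each run reads 5′ to 3′ on the strand of the gene.
Ccdc180, plus strand, chr4:45890053-45890352: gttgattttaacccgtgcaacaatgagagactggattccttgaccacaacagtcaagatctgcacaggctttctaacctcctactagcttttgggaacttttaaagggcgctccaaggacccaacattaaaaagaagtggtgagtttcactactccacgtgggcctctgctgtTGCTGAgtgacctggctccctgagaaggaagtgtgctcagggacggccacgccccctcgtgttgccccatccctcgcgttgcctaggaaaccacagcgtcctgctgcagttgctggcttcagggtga
Tdrd7, plus strand, chr4:45972047-45972346: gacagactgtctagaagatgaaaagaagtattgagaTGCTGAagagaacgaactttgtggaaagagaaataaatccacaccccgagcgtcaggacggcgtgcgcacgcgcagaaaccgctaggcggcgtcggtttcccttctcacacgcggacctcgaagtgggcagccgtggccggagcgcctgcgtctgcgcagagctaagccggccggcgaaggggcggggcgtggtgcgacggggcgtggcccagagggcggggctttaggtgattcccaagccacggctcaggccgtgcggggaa
Rabgef1, plus strand, chr5:130186930-130187229: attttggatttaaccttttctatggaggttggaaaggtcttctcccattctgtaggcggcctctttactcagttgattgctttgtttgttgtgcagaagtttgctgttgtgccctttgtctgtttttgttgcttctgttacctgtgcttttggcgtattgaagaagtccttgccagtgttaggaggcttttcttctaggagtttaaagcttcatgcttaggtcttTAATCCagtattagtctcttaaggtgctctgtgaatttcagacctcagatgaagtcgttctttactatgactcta
Ebpl, minus strand, chr14:61360396-61360695: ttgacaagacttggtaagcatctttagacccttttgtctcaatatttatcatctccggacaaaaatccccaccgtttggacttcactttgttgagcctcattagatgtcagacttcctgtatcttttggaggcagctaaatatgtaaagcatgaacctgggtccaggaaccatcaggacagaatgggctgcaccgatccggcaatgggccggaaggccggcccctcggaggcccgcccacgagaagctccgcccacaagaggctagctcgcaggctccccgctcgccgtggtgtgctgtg

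TGCTGA occurred in 1 window each of Ccdc180 and Tdrd7, 77 and 214 bases before the start site, and in 19.5% of all 32851 windows. The Ccdc180 window lies at the annotated 5′ end of the gene. As described below, the first 19 probe sets in identifier order, taken to lie toward that end, had a median difference of 0.04. Their control means were low, with a median of 5.20 against a median signal of 5.98 over all genes. Whether the match bears on the signal of any Ccdc180 probe set was not tested. TGCTGAC occurred in none of the 8 windows and in 4.67% of all windows. TAATCC occurred in 1 of the 3 Rabgef1 windows, 25 bases before the start site, and in 7.06% of all windows. These matches describe letters in a short window and show no binding. The windows also differ in base composition, as the printed Rabgef1 window holds 40.7% G and C and the printed Tdrd7 window 63%, against a median of 52.7% over all windows.

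Rabgef1 has 1 probe set (10526133). Its log2 signal was 7.65 and 7.72 in the knockout pools against 9.13 and 8.96 in the control pools. Both knockout arrays lay below both control arrays by at least 1.24, while arrays of a group differed by 0.08 and 0.17. The means were 7.69 ± 0.06 (SD, n = 2) and 9.05 ± 0.12 (SD, n = 2), a difference of −1.36 that left 38.9% of the control signal. By mean signal over the 4 arrays the gene ranked 1720 of 19421 and by size of fall it ranked 10.

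Ebpl, with 1 probe set (10420631), had the highest signal of the 5. It read 8.996 and 8.84 in the knockout and 10.41 and 10.36 in the control. The groups were separated by 1.36, against 0.16 and 0.05 between arrays of a group. Its means of 8.92 ± 0.11 (SD, n = 2) and 10.39 ± 0.04 (SD, n = 2) differ by −1.47, or 36.1% of the control signal. It ranked 471 by signal and 9 by fall.

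Tdrd7, also with 1 probe set (10504672), read 7.64 and 7.84 in the knockout against 8.82 and 8.76 in the control. The groups did not overlap, and the gap of 0.91 is the smallest among the 5 genes. Its means of 7.74 ± 0.14 (SD, n = 2) and 8.79 ± 0.04 (SD, n = 2) differ by −1.04, which left 48.5% of the control signal. The ranks were 1840 by signal and 15 by fall.

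Sh2d1a, with 1 probe set (10599411), showed the smallest fall. It read 7.35 and 7.25 in the knockout and 8.30 and 8.27 in the control. The arrays of a group lay within 0.10 and 0.03 of each other, and the groups were 0.92 apart. The means, 7.30 ± 0.07 (SD, n = 2) and 8.28 ± 0.02 (SD, n = 2), differ by −0.99, or 50.5% of the control signal. It ranked 2791 by signal and 18 by fall.

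Ccdc180 is covered by 27 probe sets, and the one with the highest mean over the arrays (10504668) stands for the gene. There the signal was 6.19 and 6.46 in the knockout and 7.92 and 7.89 in the control. The gap of 1.42 is the widest of the 5, and the knockout arrays differed by 0.27, the largest difference within a group among these genes. The means of 6.33 ± 0.19 (SD, n = 2) and 7.90 ± 0.02 (SD, n = 2) give −1.58, or 33.5% of the control signal. The gene ranked 4559 by signal and 6 by fall. With the mean of all 27 probe sets the difference was −0.31 and the rank by fall 581, so the value rests on which probe set is read.

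**Figure D1:**
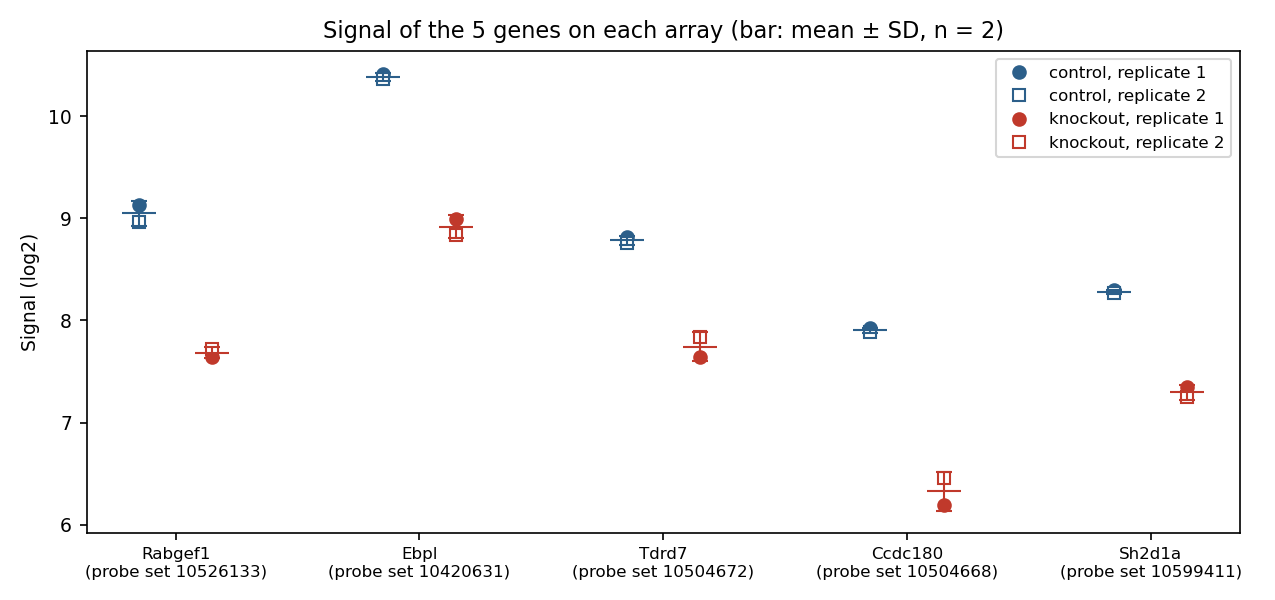
Log2 signal of each gene's probe set on every array, with control in blue, knockout in red, filled circles for replicate 1 and open squares for replicate 2. Horizontal bars with whiskers give the mean ± SD (n = 2), and in each of the 5 genes both knockout arrays lie below both control arrays.

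Non-overlap of this kind was met in 18.4% of all genes, and here it follows from the choice of the genes. Only 17 of the 19421 genes had a difference below −1. The differences of the 5 genes ran from −1.58 to −0.99, while the median over all genes was −0.00 and the 1st percentile −0.44. For scale, the rod genes Gnat1, Reep6 and Rom1 stood at −3.01, −1.99 and −1.24. Gnat1 encodes the rod transducin α subunit, Reep6 a trafficking protein of rods, and Rom1 a protein of the disc rim.

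**Figure D2:**
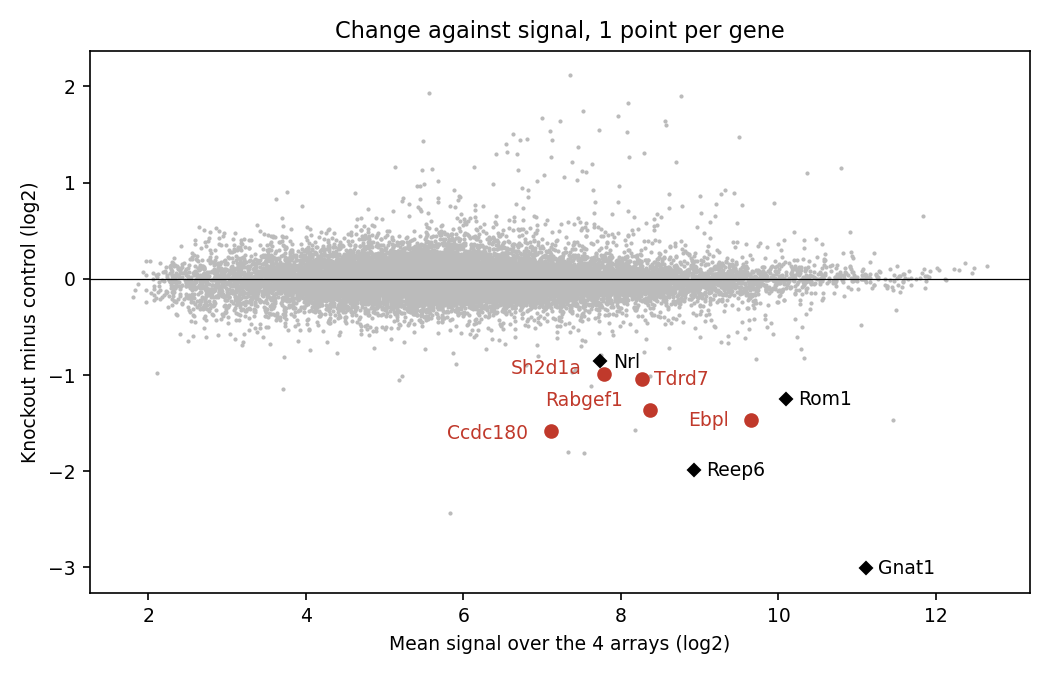
Knockout minus control difference against mean log2 signal over the 4 arrays, with 1 grey point for each of 19421 genes. The 5 genes (red) lie between −1.58 and −0.99 below a cloud centred near 0, and Nrl, Rom1, Reep6 and Gnat1 (black) mark the targeted gene and 3 rod genes.

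The size of the difference varied between the replicate numbers. Rabgef1 had −1.49 in replicate 1 and −1.24 in replicate 2, Tdrd7 had −1.17 and −0.91, and Ccdc180 had −1.73 and −1.42. In Ebpl the order was the other way, at −1.42 and −1.52, and likewise in Sh2d1a, at −0.95 and −1.02. With 1 array for each genotype and number, these contrasts between replicates have no test.

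A comparison that did not choose the genes is replicate 2 minus replicate 1 over both genotypes, in which 0.0206% of all genes were called. These were 4 genes, Xist, Kdm5d, Uty and Eif2s3y, the last named after its values were seen. None of the 5 was called. The X-linked Sh2d1a had −0.07 (limma adjusted p = 0.870), against 6.49 for Xist (adjusted p = 4.85e-04). Rabgef1 had −0.04 (adjusted p = 0.923), Ebpl −0.11 (adjusted p = 0.781), Tdrd7 0.07 (adjusted p = 0.883) and Ccdc180 0.12 (adjusted p = 0.809). With 1 residual degree of freedom this fit has little power for small differences.

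The probe sets of Ccdc180 split by their place on the array. Identifiers on this array run along the chromosome: of 18901 steps between consecutive identifiers of different genes on a chromosome, 99.3% went to a higher start position, and 99.7% of the 1099 such steps on chromosome 4 did. Positions of single probe sets within the gene were not used here, so their order is taken from the identifiers. Since the gene lies on the plus strand, higher identifiers then lie nearer its 3′ end, and the last Ccdc180 identifier, 10504670, is followed by that of Tdrd7, 10504672. The division was read off the values, at the first probe set with a difference below −0.5, and gets no test.

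The first 19 Ccdc180 probe sets in this order (10504611 to 10504654) had differences between −0.28 and 0.28, with a median of 0.04. In 6 of them both knockout arrays lay below both control arrays, against 18.4% of all genes. In 4 both lay above, for which no share over all genes is given here. The mean signal of these 19 was 4.62 and 4.78 in the knockout pools against 4.63 and 4.76 in the control pools, so the genotypes interleaved. Their control means ran from 2.29 to 6.70, with a median of 5.20, against a median signal of 5.98 over all genes. A probe set near background may not register a fall, so a flat value there does not show unchanged transcript.

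The last 8 (10504656 to 10504670) behaved differently. Of these, 7 had differences below −0.5, the limit that also set where this stretch begins. The 7 include the probe set that stands for the gene, so the count partly follows from how gene and stretch were chosen. Over all 20877 probe sets with a single gene symbol, 0.738% fell below −0.5. In the same 7 both knockout arrays lay below both control arrays, which was met in 18.4% of all genes. Probe set 10504656 read 5.16 and 5.37 in the knockout and 6.71 and 6.55 in the control (−1.36). Probe set 10504658 read 5.90 and 5.43 against 7.31 and 6.88 (−1.43), and 10504662 read 5.72 and 5.95 against 7.52 and 7.01 (−1.43). In these 3 the falls were somewhat smaller than that of the probe set that stands for the gene.

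Further along, 10504664 read 4.15 and 4.39 in the knockout and 5.52 and 5.20 in the control (−1.10). At 10504666 the values were 5.65 and 5.80 against 6.41 and 6.31 (−0.63), the smallest of the 7 falls. The last probe set, 10504670, read 5.78 and 5.55 against 6.83 and 6.58 (−1.04), close to the −1.04 of Tdrd7. The exception in this stretch was 10504660, at 6.18 and 6.12 in the knockout and 5.98 and 6.14 in the control (0.09), where the groups overlapped.

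Averaged over the last 8, the signal was 5.59 and 5.63 in the knockout pools against 6.78 and 6.57 in the control pools. Their median difference was −1.39 in replicate 1 and −1.04 in replicate 2. Among the 19 genes with 10 or more probe sets, Ccdc180 had the widest scatter of differences, with an SD over probe sets of 0.59 against a median of 0.14. Whether the probe sets of this stretch detect transcript of Ccdc180 itself was not tested.

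**Figure D3:**
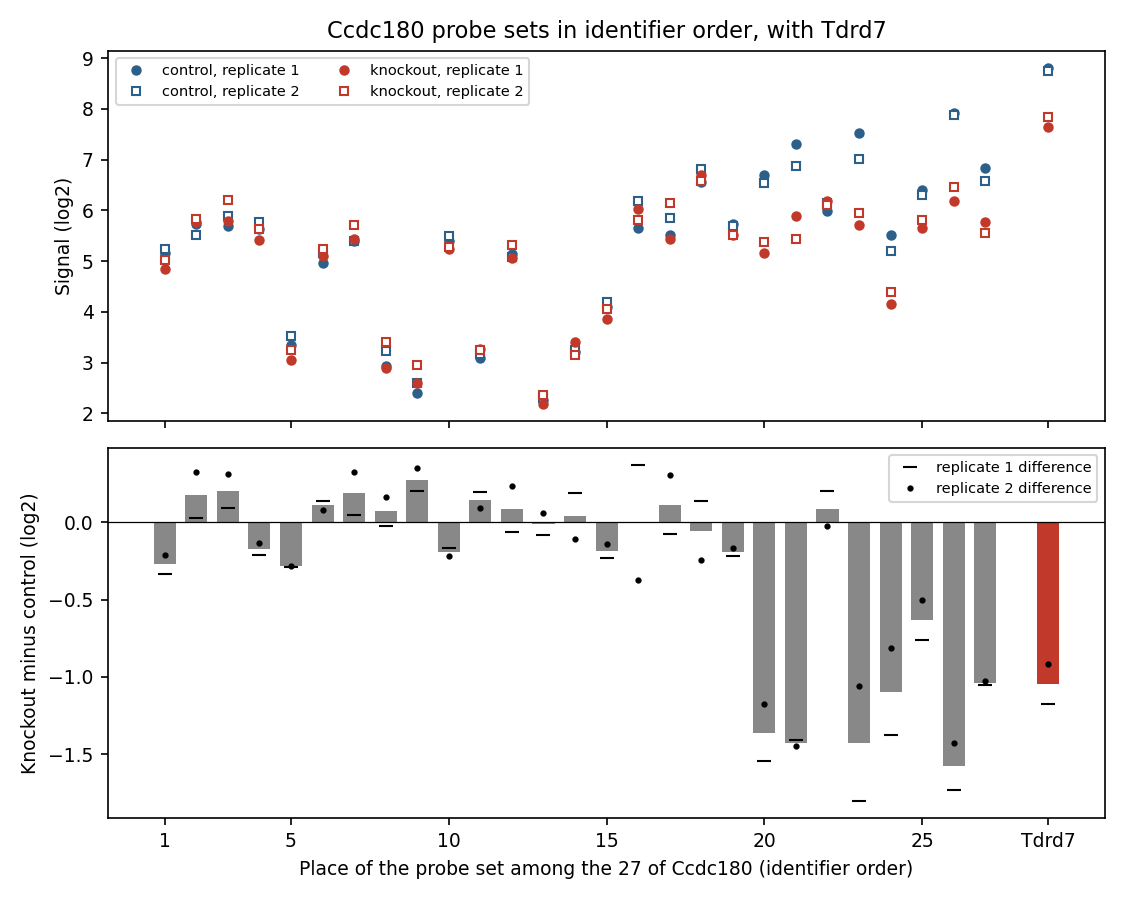
Upper panel, log2 signal of the 27 Ccdc180 probe sets in identifier order and of the single Tdrd7 probe set on each array (control blue, knockout red, filled circles replicate 1, open squares replicate 2). Lower panel, knockout minus control difference as bars, with marks for each replicate number; places 1 to 19 stay between −0.28 and 0.28, and 7 of the last 8 lie between −1.58 and −0.63, beside −1.04 for Tdrd7.

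Other genes near the 5 on their chromosomes lay around 0. Over the 5 nearest measured genes on each side of each gene, 40 different genes in all, 18 lay below 0, the median difference was 0.01 and the range −0.32 to 0.48. Limma called 0 of the 40, against 0.201% of all genes, a share at which most sets of this size hold no call. Around the pair Ccdc180 and Tdrd7, Stra6l on the lower side had 0.00 (SE 0.11, adjusted p = 0.999) and Tmod1 on the higher side 0.12 (SE 0.16, adjusted p = 0.950). Ebpl lies between Arl11, at 0.35 (SE 0.17, adjusted p = 0.775), and the importin gene Kpna3, at −0.32 (SE 0.11, adjusted p = 0.633). Next to Rabgef1, Kctd7 had −0.29 (SE 0.10, adjusted p = 0.619) and Tmem248 −0.02 (SE 0.11, adjusted p = 0.989). Next to Sh2d1a, the cohesin gene Stag2 had −0.06 and Tenm1 −0.05 (SE 0.10 and 0.14, adjusted p = 0.966 and 0.980).

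Partners of Rabgef1 in the Rab5 pathway were then examined. Of 52 genes listed, 47 were measured and none was called in either direction, against 0.201% of all genes. At that share most lists of this size hold no call, so a count of 0 says little about a list. The median was −0.02 and the range −0.28 to 0.45. Rab5a, Rab5b and Rab5c, the GTPases that Rabgef1 acts on, had 0.03, −0.04 and −0.07, and Rabep1, whose protein binds the Rabgef1 protein, had 0.03. Other exchange factors with the same kind of catalytic domain stood at 0.16 (Rin1), −0.28 (Rin2), −0.01 (Rin3), −0.05 (Gapvd1) and −0.12 (Ankrd27). The largest differences of the list were those of Rab31, at 0.45 (SE 0.18, adjusted p = 0.678), and Rin2 (SE 0.14, adjusted p = 0.771). The Rin2 probe set is annotated to that gene, though RefSeq also lists the name as a synonym of Rabgef1.

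Ebp, the relative of Ebpl that isomerises sterols, read 6.09 and 6.05 in the knockout and 5.99 and 5.90 in the control, a difference of 0.13 (SE 0.10, adjusted p = 0.884). Of 27 sterol synthesis genes 23 were measured and none was called, against 0.201% of all genes. In this list 18 lay below 0 and 5 above, with a median of −0.10, against 50.9% of all genes below 0. The extremes were Pmvk, a kinase of the mevalonate pathway, at 0.78 (SE 0.10, adjusted p = 0.0739), and the isomerase Idi1 at −0.53 (SE 0.12, adjusted p = 0.358). Pmvk was called in some other settings, at an adjusted p of 0.0124 without weakly detected genes and 0.0135 with a variance trend.

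Relatives of Tdrd7 had small differences, mostly below 0, and none was called. Tdrd1, Tdrd3, Tdrd5, Tdrd6, Tdrd9 and Tdrkh had −0.16, 0.04, −0.17, −0.08, −0.01 and −0.04. Tdrd12, named after its values were seen, had −0.07. The list of Tudor and RNA granule genes, all 37 measured, held no call, against 0.201% of all genes. Its median was −0.06, with 26 genes below 0 and 11 above. Its largest differences were −0.34 for the germ cell gene Asz1 (adjusted p = 0.699) and 0.33 for the P-body gene Lsm14a (adjusted p = 0.562). Lens genes, tested because Tdrd7 is known from the lens, had 0 calls among 16 measured, against 0.201% of all genes. Their mean signal was 6.09 and 6.18 in the knockout and 6.09 and 6.22 in the control. Crygs had −0.53 (SE 0.20, adjusted p = 0.655) and Caprin2 0.37 (SE 0.21, adjusted p = 0.812).

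For Ccdc180, whose name gives no pathway, genes of motile cilia served as a comparison. None of 39 measured members was called, against 0.201% of all genes, 24 lay above 0 and the median was 0.04. Only 10 of the 39 reached the median signal of all genes, 5.98. The mean signal of this list was 5.42 and 5.45 in the knockout and 5.36 and 5.46 in the control. Dnah7a, at 0.50, and Ak7, at −0.49, were its extremes (SE 0.20 and 0.16, adjusted p = 0.705 and 0.605).

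Sh2d1a is known from lymphocytes, so its receptors and lymphocyte markers were read alongside. Among SLAM receptors, Slamf1 had −0.22, Slamf6 −0.09, Cd244a 0.13, Ly9 0.28 and Cd84 0.36 (adjusted p = 0.619 for the last). Fyn, the kinase that SAP recruits, had −0.05, and the related adaptors Sh2d1b1 and Sh2d1b2 had 0.12 and 0.09. Of 20 measured genes in this list none was called, against 0.201% of all genes. Only 5 of the 20 reached the median signal of all genes, 5.98. Slamf1, Cd84, Sh2d1b1 and Sh2d1b2 lay at percentiles 5.87, 8.53, 5.19 and 2.14 of signal, so their values cannot be told from background. In the list 10 lay below 0 and 10 above, and the median was −0.00. Xiap, its lowest member at −0.30 (SE 0.13, adjusted p = 0.723), is also a chromosomal neighbour of Sh2d1a.

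T and NK cell markers had low signal and lay around 0. None of 30 measured markers was called, against 0.201% of all genes, 16 lay below 0 and 14 above, and the median was −0.01. Their mean signal was 4.999 and 5.05 in the knockout pools against 5.02 and 5.09 in the control pools. Only 2 of the 30 reached the median signal of all genes, 5.98. Cd2 had −0.33 (SE 0.19, adjusted p = 0.815) and Cd3d −0.22 (SE 0.12, adjusted p = 0.813). Which cells of the retina carry the signal read by the Sh2d1a probe set was not tested.

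Rod markers lay mostly on the same side as the 5 genes. Of 18 measured, 17 were below 0, and the median was −0.56. The list includes the targeted gene Nrl itself, at −0.86. It also includes Gnat1, Reep6 and Rom1, given above for scale. Called lower were 4 (Gnat1, Reep6, Gnb1 and Rom1), against 0.0618% of all genes, while 0 were called higher and 14 did not pass. The mean signal of the list was 9.52 and 9.47 in the knockout pools against 10.30 and 10.26 in the control pools. The part of the rod signal in the falls of the 5 genes was not tested. Cone markers, 12 in all, had 7 members below 0, 5 above and a median of −0.13. There were 2 calls, both higher, against 0.139% of all genes called higher. They were the transducin subunits Gnb3 at 1.59 (SE 0.16, limma adjusted p = 0.0366) and Gnat2 at 1.10 (SE 0.12, adjusted p = 0.0402). With the replicate number as a further term, Gnat1 and Reep6 were called (limma adjusted p = 0.0429 for each), while Gnb1, Rom1, Gnb3 and Gnat2 were not. With any 1 array left out, the rod list had 0 to 2 calls and the cone list 0. Such a fit has 1 array in an arm, which is assumed to vary like the other group. Gnat1 was still at −2.86 without knockout replicate 1 and −3.16 without knockout replicate 2. Markers of inner retina and glia had 0 calls among 15, against 0.201% of all genes, and a median of −0.06. The glial genes Gfap and Glul had 0.70 (limma adjusted p = 0.317) and −0.37 (adjusted p = 0.518).

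**Figure D4:**
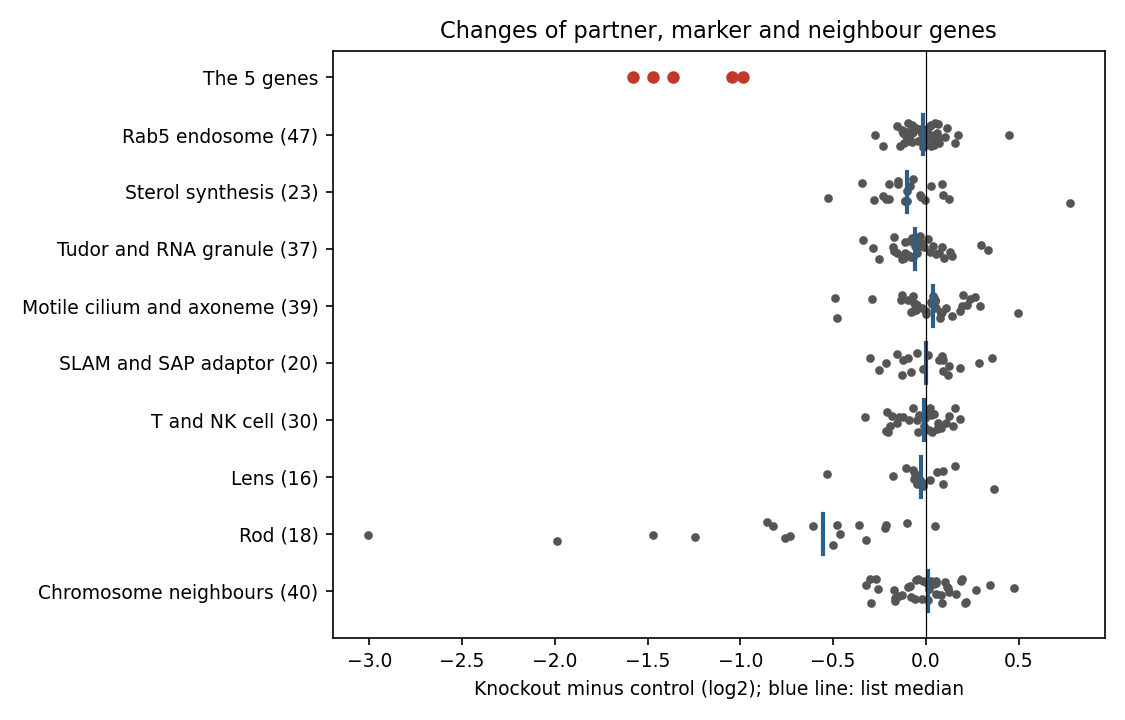
Knockout minus control differences (log2) of the 5 genes (red), of the members of 8 lists and of 40 chromosomal neighbours (grey points, 1 per gene, with the number of genes in brackets and the median as a blue line). The rod list has a median of −0.56, while the medians of the other lists drawn lie between −0.10 and 0.04. The cone list and the list of inner retina and glia are not drawn.

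Profiles were last compared by the Euclidean distance between log2 signals over the 4 arrays, after each gene's own mean was subtracted. Since the 5 genes were chosen for falling, their nearest profiles are other genes with falls of like size, and the distances are a description. Gnb1, the transducin β subunit of rods, was nearest to Ebpl at 0.06, with 10.84 and 10.59 in the knockout and 12.20 and 12.17 in the control. Rom1 was nearest to Rabgef1 at 0.16, followed by Ebpl at 0.22, Ccdc180 at 0.27, Gnb1 at 0.27 and Tdrd7 at 0.34. After Gnb1, the order for Ebpl was Rabgef1, Rom1, Ccdc180 and Glb1l2, a galactosidase-like gene, out to 0.33.

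For Ccdc180 the nearest were Rabgef1 at 0.27, Ebpl at 0.32, Glb1l2 at 0.34, Gnb1 at 0.38 and Rom1 at 0.41. Tdrd7 was nearest to Sh2d1a at 0.22, then to Pfkfb2, Rdh12, Pde6b and Rom1, out to 0.28. Rdh12, a photoreceptor retinol dehydrogenase, was nearest to Sh2d1a at 0.17, before Dleu7 at 0.18, Pde6b at 0.19, Tdrd7 at 0.22 and Plekha2 at 0.22. Rabgef1, Ebpl and Ccdc180 thus sit among the genes with the larger falls, from −1.58 to −1.36, and Tdrd7 and Sh2d1a among those near −1.04 and −0.99. The chromosomal neighbours Tdrd7 and Ccdc180 were 0.54 apart at the probe set used for Ccdc180.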

How the data were processed

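For 4 arrays of pooled mouse retina RNA, the authors deposited a table of log2 values over 21897 probe sets. Per the submitters' processing notes, affy and limma were used, with no version or role named. How background and array scale were treated is, in the sources used here, not given, and the log2 scale was taken from the range of the values, 1.34 to 12.75. Array medians lay between 5.99 and 6.04, and the scale was kept.

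The platform annotation gave 20877 probe sets 1 gene symbol. Each gene took the value of its probe set of highest mean signal, which left 19421 genes with no filter on low signal. The genotype test was two-sided, with genotype as the only term, by lmFit and eBayes of limma 3.58.1 (R 4.3.3), adjusted over all genes after Benjamini and Hochberg, and replicate 2 was compared with replicate 1 in a fit with both terms. SD is over the 2 pools of a group. SE is the moderated standard error, which draws the variance of each gene toward that of all genes. P-values thus rest on the spread between pools over all genes as well as within the gene. An exact permutation test of 2 arrays against 2 cannot go below 1 in 3. The fit was tested on simulated data. Positions and promoter windows are from RefSeq, GRCm38.p6.

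The members and gene lists were chosen with earlier results of these data known. Genes named besides the 5 are, by rule, Nrl, Gnat1, Reep6 and Rom1, called genes and the 2 largest changes of each list, set relatives and partners, nearest neighbours, sex-linked genes and the 5 nearest profiles. List genes with no value were not analysed here.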

Additional observations from a re-analysis of the deposited data

How the results depend on the processing

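Quantile normalization and subtracted array medians were the settings that could shift the differences of Rabgef1, Ebpl, Tdrd7 and Sh2d1a by more than the spread of the arrays, and they gave −1.34 and −1.37, −1.46 and −1.48, −1.03 and −1.06, and −0.970 and −0.998. The replicate block, the variance trend and the filter on low signal leave a difference as it is, and so does the mean of probe sets where a gene has 1. Leaving out an array can move it by no more than 1 SD, so none of these bears on stability. Leaving out an array gave −1.45 to −1.28 for Rabgef1, −1.55 to −1.39 for Ebpl, −1.14 to −0.94 for Tdrd7, −1.71 to −1.44 for Ccdc180 and −1.04 to −0.93 for Sh2d1a. Ccdc180 had −1.57 and −1.59 with the rescalings and −0.31 with the mean of its 27 probe sets. Without 1 array the rank by fall ran from 8 to 11 for Ccdc180, 10 to 12 for Ebpl, 10 to 14 for Rabgef1, 15 to 30 for Tdrd7 and 20 to 27 for Sh2d1a. The last places for Ccdc180, Tdrd7 and Sh2d1a came without knockout replicate 1.

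Counts of called genes moved more. Over all genes there were 89 calls (58 higher, 31 lower) among genes at or above the 50th percentile of signal, where 9711 genes were tested, 128 (81 higher, 47 lower) with a variance trend, and 8 (5 higher, 3 lower) with the replicate block. The replicate differences of the genotypes correlated at 0.239 over genes. The labels do not say that a number marks a shared origin, though the sex-linked genes followed it in both genotypes. Leaving out 1 array, so that the lone array of a group is assumed to vary like the other group, gave 0 to 11 calls, 0 to 5 higher and 0 to 6 lower; limma called 0 without either control replicate, where 1355 and 1328 genes had an unadjusted p under 0.05. Of the rod markers 8 were called with the filter, 10 with the trend, 2 with the block and 0 to 2 without an array. Cone markers had 4 calls with the trend, of which Opn1sw was lower (−0.52) and the others higher, and 0 with the block. Sterol synthesis had 1 call, Pmvk, with the filter and with the trend. The cause of these shifts was not tested. The other lists and the neighbours held 0 calls throughout. With 2 arrays in a group, their number bounds the precision throughout.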
